A study of Mus musculus with 4 samples.

Results

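The transcripts of the mitochondrial respiratory chain and of ATP synthase were described in mouse bone marrow progenitors with and without Sin3B, a corepressor of transcription. Members were all genes whose symbols begin with Nduf, Uqcr, Sdha, Sdhb, Sdhc, Sdhd, Cox4, Cox5, Cox6, Cox7, Cox8, Atp5, mt-Nd, mt-Co, mt-Cytb or mt-Atp and that had at least 50 unique molecular identifiers (UMIs, counts of captured transcripts) in each of the 2 libraries. This gave 107 of 32285 genes, after Cox7b2, Cox8b, Cox8c and Ndufa4l2 fell below the minimum among 111 genes with these prefixes. Of the members, 94 are nuclear genes, with 46 for complex I, 8 for complex II, 8 for complex III, 15 for complex IV and 17 for complex V, and 13 lie on the mitochondrial genome, with 7, 0, 1, 3 and 2 in the same order. The nuclear members hold 12 assembly factors, which help to build complexes I and II but are not part of them. The other 82 were counted as subunits. Complex and kind were assigned by symbol alone.

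The respiratory chain passes electrons from NADH and succinate to oxygen and pumps protons across the inner mitochondrial membrane, and ATP synthase (complex V) uses the proton gradient to make ATP. Complexes I, III, IV and V are built from subunits encoded in both genomes, whereas complex II is wholly nuclear. Quiescent hematopoietic stem cells are known for relying little on oxidative phosphorylation, which becomes more active as they enter differentiation.

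Transcripts had been counted in single LSK cells, the sorted Lineage-negative bone marrow fraction positive for Sca-1 and cKit that contains hematopoietic stem cells and multipotent progenitors. Wild-type cells came from Sin3B F/F mice and knockout cells from Sin3B F/F; Vav1-iCre+ mice, both on a C57BL/6 background. Both carry the floxed allele, and in the knockout the Vav1 promoter drives Cre in the hematopoietic system. Mice were examined at homeostasis, when they were male per the study's methods, or 9 days after a single intraperitoneal dose of 100 mg/kg 5-fluorouracil (5-FU), which kills dividing progenitors. Cells of 2 mice per genotype and condition were pooled under 1 hashtag antibody, so each genotype is 1 pool within a condition and no difference between genotypes has a replicate check. Intervals below are 95% intervals that cover counting error only. Each condition is 1 library, so a condition and its library cannot be told apart, and levels were compared between genotypes within a library but not between libraries.

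At homeostasis 10319 wild-type and 4137 knockout cells were kept, with medians of 6987 and 6619 UMIs per cell, and after 5-FU 4880 and 3310 cells, with medians of 9304.5 and 10960 UMIs. Sin3b, the targeted gene, had a level of 81.8 CPM in the homeostasis wild-type pool and 23.2 CPM in the knockout pool, where CPM is the number of UMIs per 1000000 UMIs of the pool, and in the 5-FU library these levels were 112 and 15.1 CPM. Sin3b was lower in knockout cells of every cell class. Cells were grouped into clusters without the member genes, and clusters were named from markers. The clusters resembling long-term hematopoietic stem cells (LT-HSC-like) took up 26.9% of wild-type against 47.4% of knockout cells at homeostasis, and 30.3% against 36.7% in the 5-FU library. These shares moved with the processing, to 10.3% and 22.7% at homeostasis without removal by mitochondrial share, and to 16.0% and 24.1% after 5-FU when a cell was assigned to the tag that gave 80% of its hashtag UMIs. With a marker counted as raised at 2-fold, a single cluster kept this name in each library. That cluster held 11.4% of wild-type against 21.9% of knockout cells at homeostasis, and 6.52% against 21.5% after 5-FU. Clusters that held at least 50 cells of each genotype numbered 10 in each condition. After 5-FU 1 small unnamed cluster was shallow, with a median of 1739 UMIs per cell and 17.9% mitochondrial transcripts in wild-type cells, and it held 1.43% of wild-type against 3.56% of knockout cells.

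At homeostasis the mitochondrially encoded transcripts made up more of the RNA of knockout cells than of wild-type cells, and the nuclear ones slightly less. The 13 mitochondrial members summed to 2.17% of UMIs in the wild-type pool and 2.40% in the knockout pool, a log2 ratio of 0.15 (interval 0.14 to 0.15). The 94 nuclear members summed to 1.67% and 1.60%, a log2 ratio of -0.067 (-0.071 to -0.062). Both sums differed by less than the limit used here to count single genes, a log2 ratio of 0.32, which is 25% higher or 20% lower. The mitochondrial sum was higher in knockout cells in 10 of 10 clusters, by 0.016 to 0.22, and the nuclear sum was lower in 8 of 10, between -0.066 and 0.050. With each cluster given the same weight in both genotypes, its share of all kept cells, the nuclear log2 ratio was -0.028, against -0.067 in the pools. The share of LT-HSC-like cells differs between the pools, and its part in the nuclear ratio was not tested. The mitochondrial sum under that weighting stayed within the pooled interval.

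After 5-FU the nuclear transcripts made up more of the RNA of knockout cells, with a nuclear sum of 1.77% of UMIs in wild type against 1.92% in knockout, a log2 ratio of 0.12 (0.11 to 0.12). The mitochondrial sum was 3.37% and 3.42%, a log2 ratio of 0.022 (0.018 to 0.025). The nuclear sum was higher in knockout cells in 9 of 10 clusters and the mitochondrial sum in 5 of 10. Knockout cells were deeper after 5-FU, and among cells of 5000 to 12000 UMIs with at most 15% mitochondrial UMIs, called depth-matched below, the nuclear log2 ratio was -0.011 and the mitochondrial one 0.14. Without the mitochondrial limit the cells of 5000 to 12000 UMIs gave -0.012 and 0.15, and with that limit alone, at any depth, the ratios were 0.12 and -0.0044. Cells above 12000 UMIs gave 0.11 and -0.027. Without the shallow cluster the ratios were 0.12 and -0.0024, so that the small mitochondrial difference in all kept cells was not seen without it. The higher nuclear sum after 5-FU was thus present in the deep cells and not in those of 5000 to 12000 UMIs. At homeostasis depth-matched cells gave -0.088 and 0.16, and cells above 12000 UMIs -0.015 and 0.10. With the 80% hashtag rule the nuclear log2 ratio was -0.16 at homeostasis and 0.10 after 5-FU, and the mitochondrial one 0.21 and 0.11. At homeostasis that rule kept 6236 wild-type and 881 knockout cells, with medians of 7747 and 9122 UMIs.

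Both shares varied with the depth of a cell after 5-FU and little at homeostasis, and depth also differed between cell classes. At homeostasis the median cell gave 2.12% of its UMIs to mitochondrial members in wild type and 2.38% in knockout, and 1.61% and 1.52% to nuclear members. The median ratio of nuclear to mitochondrial UMIs within a cell was 0.750 for wild type against 0.639 for knockout. Knockout cells had the higher mitochondrial and the lower nuclear median in all 4 depth bins. After 5-FU the same ratio was 0.494 and 0.502. In the bin of 8000 to 12000 UMIs the mitochondrial medians were 3.13% in wild type and 3.53% in knockout, and the nuclear medians 1.58% and 1.55%. Above 12000 UMIs the mitochondrial medians were 3.04% and 3.02%, and the nuclear medians 1.87% and 2.04%. The order of the genotypes thus turned between deep and shallower cells of the 5-FU library.

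**Figure D1:**
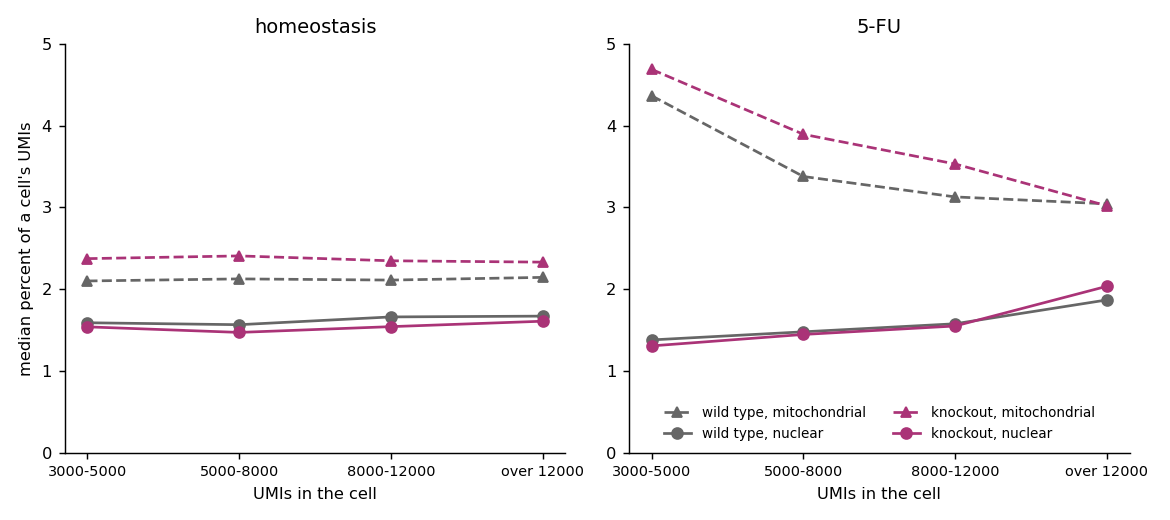
Median share of a cell's UMIs from the mitochondrial members (triangles, dashed lines) and from the nuclear members (circles, solid lines), in wild-type (grey) and knockout (purple) cells, by the number of UMIs in the cell. At homeostasis the genotypes keep their order in every bin, and after 5-FU they meet or cross above 12000 UMIs.

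By complex, the nuclear members of complexes I, III, IV and V were lower in knockout cells at homeostasis, with log2 ratios of -0.061, -0.085, -0.061 and -0.080, and complex II was at 0.032. After 5-FU the 5 nuclear sums were all higher in knockout cells, with 0.13 for complex I, 0.16 for complex II, 0.058 for complex III, 0.15 for complex IV and 0.098 for complex V. The mitochondrial members of complexes IV and V were higher in knockout cells at homeostasis, by 0.17 and 0.19, but not after 5-FU, with -0.014 and -0.029. The mitochondrial members of complex I were at 0.058 and 0.17, and mt-Cytb, the single one of complex III, at 0.092 and 0.079. The 12 assembly factors summed to 399 CPM in wild-type and 402 CPM in knockout cells at homeostasis, a log2 ratio of 0.011 whose interval of -0.019 to 0.040 includes 0, and to 360 and 392 CPM after 5-FU, a log2 ratio of 0.12 (0.092 to 0.15). Ndufa4 bears a complex I symbol but is known as a subunit of complex IV, and counted there it moves the homeostasis ratios to -0.028 for complex I and -0.095 for complex IV. After 5-FU the depth-matched cells gave nuclear ratios of 0.0098, 0.061, -0.070, 0.027 and -0.053 for complexes I to V, and mitochondrial ones of 0.27, 0.22, 0.10 and 0.11 for complexes I, III, IV and V.

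**Figure D2:**
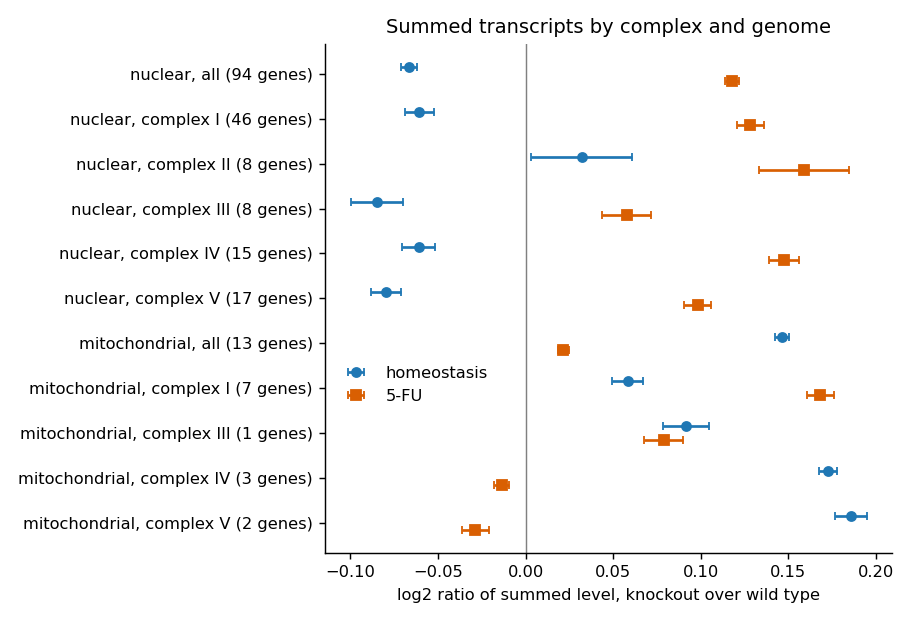
Log2 ratio of summed level, knockout over wild type, for each complex and genome of origin at homeostasis (circles) and after 5-FU (squares), with 95% intervals for counting error. The nuclear sums lie below 0 at homeostasis except that of complex II, and above 0 after 5-FU. The mitochondrial sums of complexes IV and V show the reverse order. All kept cells are shown. In depth-matched cells after 5-FU the nuclear sums of complexes III and V and the mitochondrial sums of complexes IV and V had the other sign.

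Few single members were past that limit. At homeostasis 2 members were higher beyond it in knockout cells and 5 lower, out of 107, that is 1.87% and 4.67%, while among all genes with enough UMIs 11.1% were higher and 9.78% lower. After 5-FU 6 were higher and 2 lower, where 9.24% and 12.3% of all genes were. These shares include genes with as few as 50 UMIs, which counting error alone carries past the limit more readily. They were not matched to the members by level, so the lower share of members cannot be set apart from their level. At homeostasis the kept cells held 65270 UMIs of Ndufa4 but 158 of Cox4i2 and 652 of Cox6a2. Counted at any size, 44 members were higher and 63 lower at homeostasis, where 51.6% and 48.4% of all genes were, and 90 were higher and 17 lower after 5-FU, where 46.3% and 53.7% were. The median log2 ratio of the nuclear members was -0.061 at homeostasis and 0.11 after 5-FU, beside medians of 0.0078 and -0.018 over all genes. The 2 higher at homeostasis were Cox7a2l and Cox4i2, and the 5 lower were Ndufs5, mt-Nd3, Cox6b2, Cox6a2 and Ndufa4. After 5-FU Cox4i2, Ndufs7, Ndufb5, Ndufaf3, Ndufa10 and Sdhb were higher, and Cox6b2 and Cox6a2 lower. Of these, mt-Nd3 is the single mitochondrial gene, but 2 of 13 mitochondrial members, mt-Nd1 at 0.33 and mt-Nd6 at 0.33, were higher beyond the limit in depth-matched cells after 5-FU, where 10.6% of all genes were. Of the 92 nuclear members with enough UMIs in depth-matched cells after 5-FU, 2 were higher and 2 lower beyond it, where 10.6% and 10.9% of all genes were, and 41 were higher at any size, where 49.6% were. With the 80% hashtag rule 2 nuclear members were higher and 11 lower at homeostasis, where 16.7% and 11% of all genes were, and 27.7% in either direction. Past 1.5-fold in either direction were 3 nuclear members at homeostasis and 2 after 5-FU, where 8.47% and 8.29% of all genes were.

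**Figure D3:**
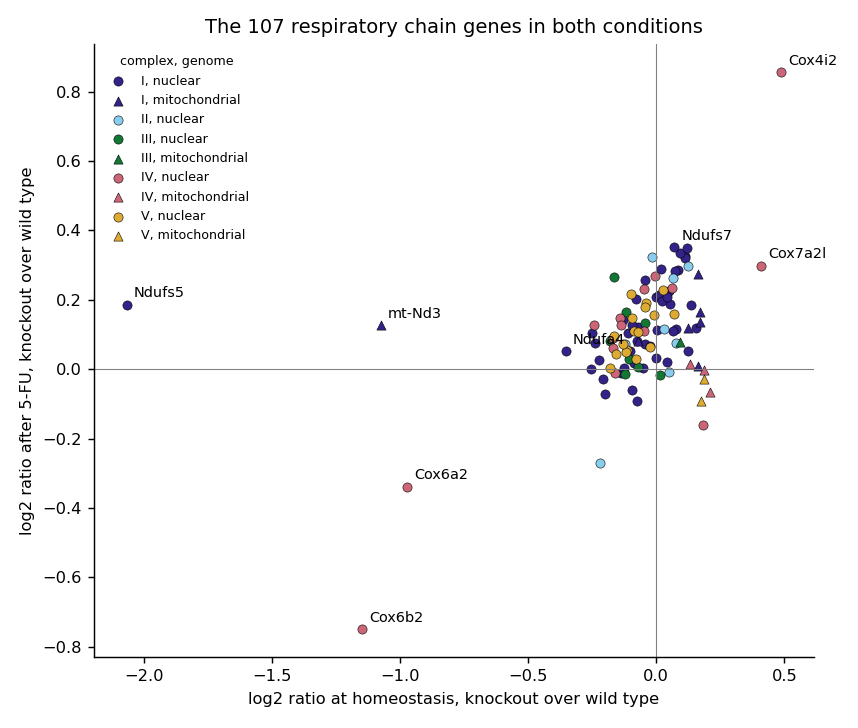
Log2 ratio, knockout over wild type, of each of the 107 members at homeostasis (horizontal axis) and after 5-FU (vertical axis), with colours for complexes, circles for nuclear and triangles for mitochondrial genes. Most members lie near 0 on both axes, and the labelled genes lie farther out, with Ndufs5 at -2.07 and 0.19.

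Ndufs5, an accessory subunit of complex I, had the largest difference of all members. At homeostasis it was at 44.7 CPM in wild-type cells (3759 UMIs) and 10.7 CPM in knockout cells (343 UMIs), a log2 ratio of -2.07 (-2.23 to -1.91). It was lower in knockout cells in 10 of 10 clusters, between -2.98 and -1.37, and in LT-HSC-like cells it was at 43.8 and 9.61 CPM. After 5-FU it was at 108 and 123 CPM, a log2 ratio of 0.19 (0.13 to 0.24). The lower level in knockout cells was thus seen in the homeostasis library and not in the 5-FU library. Other barcodes of the homeostasis library lay between the pools, with 29.5 CPM in cells carrying both tags, 13.9 CPM in cells assigned no tag and 27.2 CPM in empty barcodes of 10 to 100 UMIs. Sin3b in the same barcodes was at 60.2, 29.0 and 65.4 CPM in that order. Its pools were at 81.8 CPM in wild type and 23.2 CPM in knockout. The 6283 cells assigned no tag thus had Ndufs5 and Sin3b levels nearer the knockout pool. Over the 5 alternatives run for Ndufs5, which include another tag rule, its log2 ratio at homeostasis was -2.43 to -2.04. The part of free RNA, and of tag calls beyond that rule, in the difference was not tested.

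Of the 13 mitochondrial genes, mt-Nd3, a core subunit in the membrane arm of complex I, was the one past the limit at homeostasis, in the direction opposite to 11 of the others. It was at 476 CPM in wild-type and 226 CPM in knockout cells, a log2 ratio of -1.07 (-1.11 to -1.04), and it was lower in 10 of 10 clusters, between -1.21 and -0.88. After 5-FU it was at 109 and 119 CPM, a log2 ratio of 0.13 (0.073 to 0.18). Like Ndufs5 it was lower in knockout cells at homeostasis alone. In the homeostasis library it was at 368 CPM in cells carrying both tags, 244 CPM in cells with none and 230 CPM in empty barcodes. Without mt-Nd3 the mitochondrial log2 ratio at homeostasis was 0.16, against 0.15 with it.

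The remaining mitochondrial genes of complex I encode further membrane-arm subunits. At homeostasis mt-Nd1, mt-Nd2, mt-Nd4, mt-Nd4l and mt-Nd5 were higher in knockout cells by 0.12 to 0.17 on the log2 scale, and after 5-FU their log2 ratios were 0.27, 0.16, 0.14, 0.12 and 0.0092. With the 80% hashtag rule mt-Nd1 and mt-Nd2 were at 0.40 and 0.34 after 5-FU. For mt-Nd6, the member encoded on the light strand, the log2 ratio was -0.071 at homeostasis, with an interval of -0.15 to 0.0089, and 0.082 after 5-FU. The catalytic core of complex IV, mt-Co1, mt-Co2 and mt-Co3, was higher in knockout cells at homeostasis by 0.19, 0.21 and 0.13, and its log2 ratios after 5-FU were -0.0035, -0.066 and 0.015. The proton channel subunit of complex V, mt-Atp6, was at 3609 CPM in wild-type and 4105 CPM in knockout cells at homeostasis and at 5805 and 5694 CPM after 5-FU. Its partner mt-Atp8 had log2 ratios of 0.18 and -0.091. In these 2 complexes all 5 genes were higher in knockout cells at homeostasis, where 51.6% of all genes were, and 1 of them, mt-Co3, after 5-FU, where 46.3% were. In depth-matched cells after 5-FU, however, 13 of 13 mitochondrial genes were higher, where 49.6% of all genes were, with mt-Co2 at 0.048, mt-Atp6 at 0.11 and mt-Atp8 at 0.025.

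Among the nuclear members of complex I with the most UMIs, Ndufa4 was lower in knockout cells at homeostasis, at 597 CPM in wild type and 467 CPM in knockout, a log2 ratio of -0.35 (-0.38 to -0.33). It was lower in 10 of 10 clusters, between -0.34 and -0.11, each smaller in size than the ratio of the pools. The share of LT-HSC-like cells differs between the pools, and its part in the ratio was not tested. After 5-FU the log2 ratio of Ndufa4 was 0.052, and -0.067 in depth-matched cells. The log2 ratios of Ndufb1-ps were 0.14 at homeostasis and 0.18 after 5-FU, but 0.032 with the 80% hashtag rule at homeostasis and -0.075 in depth-matched cells after 5-FU. For Ndufa6, an accessory subunit, they were 0.15 and 0.12, and -0.023 at homeostasis with the 80% hashtag rule. Ndufs7, a core subunit that holds an iron-sulfur cluster, went from 122 CPM in wild type to 128 CPM in knockout cells at homeostasis and from 152 to 194 CPM after 5-FU, log2 ratios of 0.070 and 0.35. These were -0.0060 with the 80% hashtag rule at homeostasis and 0.24 in depth-matched cells after 5-FU. The assembly factor Ndufaf7 had log2 ratios of -0.075 and -0.091.

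Complex II, succinate dehydrogenase, joins the tricarboxylic acid cycle to the chain. Its catalytic subunit Sdha had log2 ratios of 0.077 at homeostasis and 0.074 after 5-FU. The iron-sulfur subunit Sdhb was at 67.9 CPM in the wild-type and 67.1 CPM in the knockout pool at homeostasis, and at 86.4 and 108 CPM after 5-FU, log2 ratios of -0.015 and 0.32. The membrane anchor Sdhd was at 0.13 and 0.30. In depth-matched cells after 5-FU Sdhb was at 0.16, below the limit, and Sdhd at 0.067, and with the 80% hashtag rule Sdhd was at 0.0058 at homeostasis. The larger ratios of Sdhb and Sdhd after 5-FU were thus seen with all depths kept. The assembly factor Sdhaf3 was lower in knockout cells in both conditions, by log2 ratios of -0.22 (-0.37 to -0.077) and -0.27 (-0.44 to -0.10), at 10.98 to 19.0 CPM, but with the 80% hashtag rule the homeostasis ratio was -0.071.

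In complex III, the cytochrome bc1 complex, no nuclear member was past the limit. Uqcrh, the hinge protein, had log2 ratios of 0.014 and -0.015. The small subunits Uqcr10, Uqcr11 and Uqcrq were lower in knockout cells at homeostasis, by -0.18, -0.12 and -0.17, and higher after 5-FU, by 0.082, 0.17 and 0.27. Depth-matched cells after 5-FU gave -0.088, 0.045 and -0.023, so that only Uqcr11 of these 3 kept the sign. In complex V 15 of 17 nuclear members were lower in knockout cells at homeostasis, where 48.4% of all genes were, and 17 of 17 were higher after 5-FU, where 46.3% were. In depth-matched cells after 5-FU 5 of 17 were higher, where 49.6% of all genes were. Atp5b, the catalytic beta subunit, was at 341 and 300 CPM at homeostasis and 488 and 489 CPM after 5-FU, with a log2 ratio of -0.20 in depth-matched cells of that library. The 3 genes for the same c subunit of the rotor, Atp5g1, Atp5g2 and Atp5g3, had log2 ratios of -0.17, -0.071 and -0.093 at homeostasis and 0.095, 0.11 and 0.15 after 5-FU. Atp5j, coupling factor 6, was at 0.025 and 0.23, Atp5e, the epsilon subunit, at -0.12 and 0.054, and Atp5mpl, a small proteolipid, at 0.067 and 0.16. Atp5mpl was at -0.12 at homeostasis with the 80% hashtag rule, and depth-matched cells after 5-FU gave -0.076 for it, -0.058 for Atp5e and -0.048 for Atp5g1.

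Complex IV, cytochrome c oxidase, has paired isoforms. Among the genes counted with it by symbol, Cox6b2 and Cox7a2l differed between genotypes in the same direction in both libraries. Cox6b2, known as the testis isoform of a subunit that faces cytochrome c, was at 69.7 CPM in wild-type and 31.5 CPM in knockout cells at homeostasis, and at 70.9 and 42.2 CPM after 5-FU. Its log2 ratios were -1.15 (-1.245 to -1.05) and -0.75 (-0.83 to -0.67). Over the 5 alternatives run for it they were -1.41 to -1.14 and -1.32 to -0.73, the -1.32 in depth-matched cells. It was lower in knockout cells in 10 of 10 clusters of each condition. The ubiquitous isoform Cox6b1 had log2 ratios of -0.049 and 0.23, and these were -0.18 with the 80% hashtag rule at homeostasis and 0.013 in depth-matched cells after 5-FU. Empty barcodes at homeostasis held Cox6b2 at 55.6 CPM.

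Cox7a2l was higher in knockout cells in both conditions. It was at 334 CPM in wild-type and 443 CPM in knockout cells at homeostasis and at 539 and 663 CPM after 5-FU, log2 ratios of 0.41 (0.38 to 0.44) and 0.30 (0.28 to 0.32). It was higher in 10 of 10 clusters of each condition. Its homologue Cox7a2 had log2 ratios of -0.14 and 0.13, the latter -0.098 in depth-matched cells, and Cox7a1, the muscle isoform, lay near 1 CPM, where no ratio is given. Over the 5 alternatives run for it Cox7a2l had log2 ratios of 0.40 to 0.43 at homeostasis and 0.27 to 0.42 after 5-FU.

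**Figure D4:**
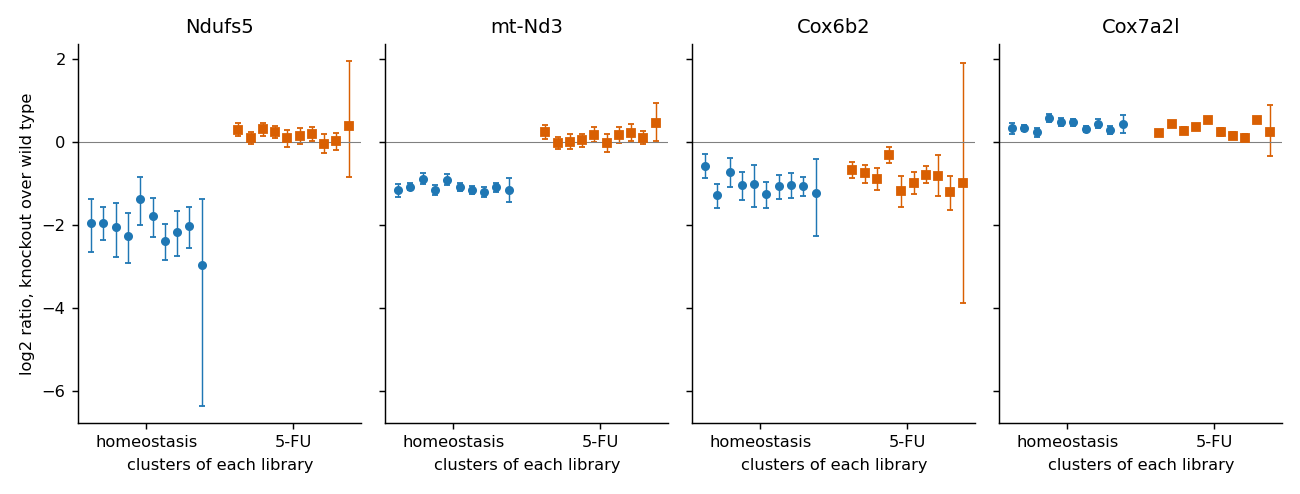
Log2 ratio, knockout over wild type, of Ndufs5, mt-Nd3, Cox6b2 and Cox7a2l in each cluster with at least 50 cells of each genotype, at homeostasis (blue circles) and after 5-FU (orange squares), with 95% intervals for counting error. Ndufs5 and mt-Nd3 lie below 0 in all 10 clusters at homeostasis and between -0.040 and 0.46 after 5-FU, whereas Cox6b2 lies below and Cox7a2l above 0 in both libraries.

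The other isoforms were sparse. Cox4i2, the oxygen-responsive isoform of the regulatory subunit Cox4, was at 1.22 CPM in wild-type and 1.71 CPM in knockout cells at homeostasis, with an interval of the log2 ratio of -0.018 to 0.97, and at 2.37 and 4.30 CPM after 5-FU, a log2 ratio of 0.86 (0.53 to 1.20). The common Cox4i1 was at 561 and 585 CPM at homeostasis and 683 and 804 CPM after 5-FU. Cox6a2, known as the heart and muscle isoform, was at 6.49 and 3.29 CPM at homeostasis, a log2 ratio of -0.97 (-1.29 to -0.68). After 5-FU it had 46 UMIs in the wild-type and 30 in the knockout pool, a log2 ratio of -0.34 whose interval of -1.06 to 0.35 includes 0. Among the wild-type classes its level was highest in the lymphoid-primed-like cluster, with 30.6 CPM (231 UMIs), against 0.229 CPM (4 UMIs) in LT-HSC-like cells. Of wild-type cells 9.21% were in that cluster, against 6.33% of knockout cells, and within it Cox6a2 was at 30.6 and 22.3 CPM. Cox6a1 had log2 ratios of -0.0049 and 0.27, the latter 0.028 in depth-matched cells. Cox7c and Cox8a were at -0.16 and -0.050 at homeostasis, at -0.011 and 0.11 after 5-FU, and at -0.11 and -0.0079 in depth-matched cells after 5-FU.

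Across cell classes at homeostasis the nuclear sums differed more than between genotypes, and the mitochondrial sums less. In wild-type cells at homeostasis the nuclear members summed to 14584 CPM in LT-HSC-like cells, 19391 CPM in megakaryocyte-erythroid-primed-like cells and 20767 CPM in neutrophil-primed-like cells. These are log2 ratios of 0.41 (0.40 to 0.42) and 0.51 (0.50 to 0.52) over LT-HSC-like cells. Of the nuclear members with enough UMIs 55 of 91 and 61 of 92 were higher beyond the limit, where 20.1% and 22.3% of all genes were. Lymphoid-primed-like cells were at 13768 CPM, a log2 ratio of -0.083. The mitochondrial sums relative to LT-HSC-like cells were -0.11, -0.058 and -0.010 on the log2 scale. The classes with higher nuclear sums thus did not have higher mitochondrial ones.

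After 5-FU the order of the classes in wild-type cells was the same. The nuclear members summed to 15618 CPM in LT-HSC-like, 19763 CPM in megakaryocyte-erythroid-primed-like, 22849 CPM in neutrophil-primed-like and 15310 CPM in lymphoid-primed-like cells, with 54 of 92 and 69 of 92 nuclear members higher beyond the limit in the megakaryocyte-erythroid-primed-like and neutrophil-primed-like cells, where 19.7% and 21.6% of all genes were. The mitochondrial sums of these classes over LT-HSC-like cells were at -0.21, -0.14 and -0.12 on the log2 scale in all kept cells, against 0.022 between genotypes. In depth-matched cells the mitochondrial ratio between genotypes was 0.14. LT-HSC-like over all other wild-type cells, a different measure from the single classes, gave 0.050 there and 0.076 in all kept cells. Single classes were not compared in depth-matched cells. Of the nuclear members of complex V 17 of 17 were higher at any size than in LT-HSC-like cells in both classes and both conditions, where 43.6% and 39.4% of all genes were at homeostasis and 38.7% and 34.8% after 5-FU, in the megakaryocyte-erythroid-primed-like and neutrophil-primed-like cells. Atp5g1 was at 163 CPM in LT-HSC-like and 331 CPM in neutrophil-primed-like cells at homeostasis, a log2 ratio of 1.02 (0.94 to 1.09), whereas Atp5g2 was at 0.39 and Atp5g3 at 0.77. Ndufa4 and Uqcrq were higher there by 1.24 and 1.10. Cox7a2l and Uqcrh were lower, by -0.55 and -0.27. Complex II had the smallest nuclear sum ratio of the complexes there, with 0.17.

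Depth and division moved with these classes. The neutrophil-primed-like cluster after 5-FU had a median of 23465 UMIs per cell and carried genes of early B cells (Ebf1, Vpreb3) among its leading genes beside Elane and Mpo. The lymphoid-primed-like cluster after 5-FU carried genes known from myeloid cells (Ccl3, Ncf1, Clec12a, Cd33) beside Ighm, Satb1 and Dntt, with 4 of 7 lymphoid and 3 of 6 neutrophil markers raised. After 5-FU 1 of the 2 megakaryocyte-erythroid-primed-like clusters was led by histone and mitosis genes, with a median of 22118 UMIs. The neutrophil-primed-like cluster at homeostasis was led by replication genes beside Elane and Ctsg. Among depth-matched cells the nuclear log2 ratio of LT-HSC-like over all other wild-type cells was -0.24 at homeostasis, where all kept cells gave -0.25, and -0.050 after 5-FU, where they gave -0.24. The lower nuclear sum of LT-HSC-like cells was thus nearly as large in depth-matched cells at homeostasis and much smaller after 5-FU. After 5-FU the medians of 23465 and 22118 UMIs lie above that window, so it also changes which other cells are compared.

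**Figure D5:**
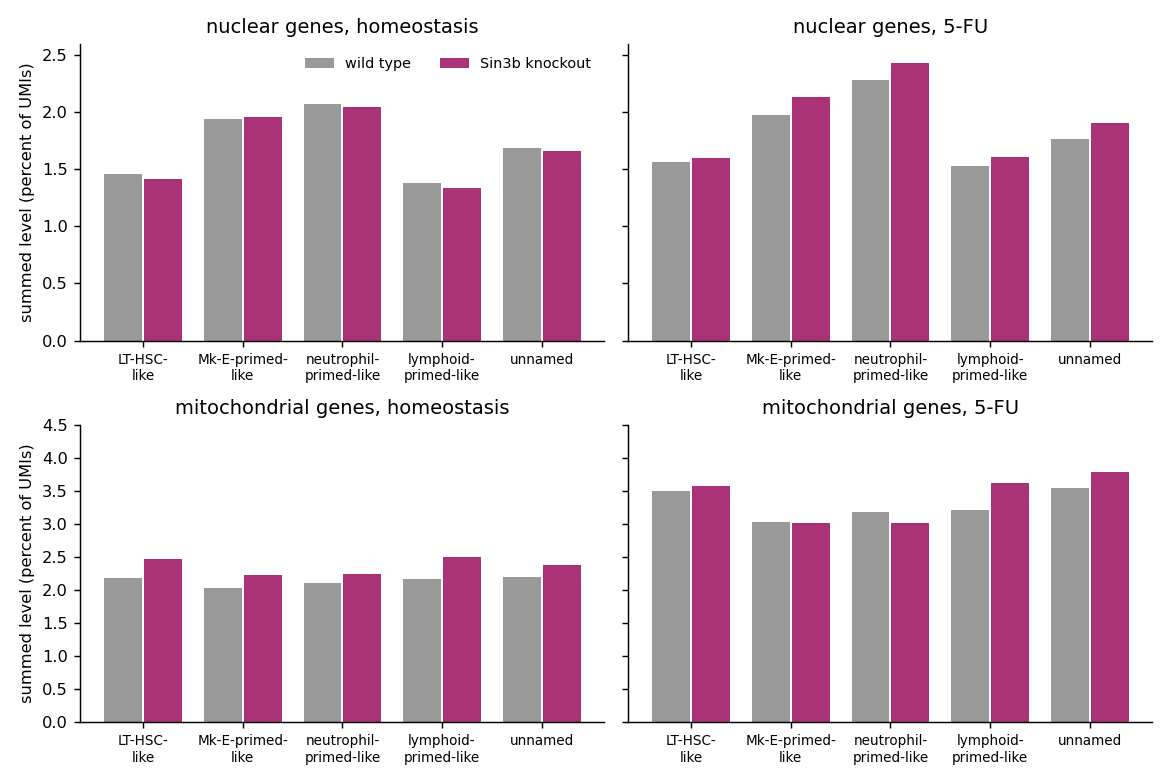
Summed level of the nuclear (top) and mitochondrial (bottom) members as a percent of all UMIs in wild-type (grey) and knockout (purple) cells of each class, at homeostasis (left) and after 5-FU (right). Nuclear levels are highest in neutrophil-primed-like cells in both libraries, and mitochondrial levels at homeostasis are higher in knockout cells of every class.

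Within classes at homeostasis the mitochondrial sum was higher in knockout cells by 0.18 in LT-HSC-like, 0.13 in megakaryocyte-erythroid-primed-like, 0.10 in neutrophil-primed-like and 0.20 in lymphoid-primed-like cells. The nuclear log2 ratios in the same order were -0.039, 0.015, -0.023 and -0.037. After 5-FU the nuclear log2 ratios were 0.036, 0.11, 0.092 and 0.069, and the mitochondrial ones 0.030, -0.0084, -0.073 and 0.17. LT-HSC-like cells after 5-FU were 2 clusters of unlike make-up. The one of 1163 wild-type and 504 knockout cells had a mitochondrial log2 ratio of -0.14, with medians of 9359 and 11888 UMIs, and the one of 318 wild-type and 712 knockout cells had 0.19, with medians of 6600.5 and 7470.5 UMIs. Within these 2 clusters the genotypes thus differed in opposite directions, and the clusters took up unequal shares of the genotypes. The nuclear ratio of LT-HSC-like cells changed sign with the processing, to 0.020 at homeostasis without removal by mitochondrial share and to -0.018 after 5-FU in depth-matched cells.

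Division was marked by 16 mitosis genes in cells thinned to 4000 UMIs, with cells of 3 or more such UMIs set against cells of 0. Cells below 4000 UMIs were left out. In wild-type cells at homeostasis the nuclear members summed to 18735 CPM in 2132 dividing cells and 15600 CPM in 4934 cells with no such UMI, a log2 ratio of 0.26 (0.26 to 0.27), and the mitochondrial sum differed by -0.0043. After 5-FU the nuclear ratio was 0.33 and the mitochondrial one 0.011. Dividing knockout cells had nuclear ratios of 0.35 and 0.37 over knockout cells with none, and mitochondrial ones of -0.10 and -0.18. The nuclear sum was thus higher in dividing cells of both genotypes and libraries, whereas over all kept cells the mitochondrial sum was nearly equal in wild type and lower in knockout. In wild-type cells after 5-FU it was made up of higher sums in dividing cells for complexes I, III and V, at 0.14, 0.12 and 0.067, and a lower one for complex IV, at -0.058. Among wild-type LT-HSC-like cells after 5-FU, of which 61 were dividing, the mitochondrial ratio was 0.52 and the nuclear one 0.16 (0.14 to 0.19). Outside the LT-HSC-like class the nuclear ratio at homeostasis was 0.22 in wild type and 0.28 in knockout. After 5-FU it was 0.30 and 0.29 there. The 16 division genes summed to 1040 CPM in wild-type and 814 CPM in knockout cells at homeostasis, and to 967 and 1166 CPM after 5-FU. At homeostasis 16 of 16 were lower in knockout, where 48.4% of all genes were, and 10 beyond the limit, where 9.78% were. After 5-FU 16 of 16 were higher, where 46.3% of all genes were, and 6 beyond the limit, where 9.24% were. In cells with no division UMI the log2 ratios of knockout over wild type at homeostasis were -0.063 for the nuclear and 0.18 for the mitochondrial sum, and in dividing cells 0.022 and 0.074. After 5-FU these were 0.062 and 0.10 in cells with none, and 0.11 and -0.087 in dividing cells. The part of division in the differences between genotypes was not tested.

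Other genes of mitochondrial energy metabolism were described from lists, and their counts stand beside the shares of all genes past the limit, 11.1% higher and 9.78% lower at homeostasis and 9.24% and 12.3% after 5-FU. Of 22 genes for upkeep and expression of mitochondrial DNA, 1 was higher beyond the limit in knockout cells at homeostasis (Mterf1a, 0.55) and 1 lower after 5-FU (Mterf2, -0.43), and the summed log2 ratios were -0.010 and 0.013. Of 11 regulators, 1 was higher and 2 lower at homeostasis and 3 were lower after 5-FU. Ppargc1b, a coactivator of mitochondrial biogenesis, was lower in both, at -0.51 and -0.39, and Myc was at -0.53 after 5-FU. These single genes were picked after their values were seen. Of 10 genes for electron carriers, their synthesis and further subunits, cytochrome c (Cycs) was lower at homeostasis, at -0.36. After 5-FU Coq7, Coq9 and Etfb of this list were higher, at 0.41, 0.33 and 0.38. Of 22 assembly factors of complexes III and IV, Lyrm7 was lower at homeostasis, at -0.77, and Coa3 higher after 5-FU, at 0.36. None of 20 genes of pyruvate dehydrogenase and the tricarboxylic acid cycle was past the limit in either condition, and their summed log2 ratios were -0.088 and 0.033. Among 9 genes that remove peroxide and superoxide, Prdx5 was higher in both, at 0.44 and 0.36.

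Markers of cell classes also moved with genotype. The 9 LT-HSC markers were higher in sum in knockout cells, by 0.34 and 0.12, the 7 megakaryocyte-erythroid ones by 0.92 and 0.71, and the 6 neutrophil and 7 lymphoid ones were lower, at -0.27 and -0.47 and at -0.53 and -0.98. At homeostasis 3 of the 6 neutrophil markers were higher and 3 lower, with Elane at 0.92, Ctsg at -1.01 and a median of -0.047. Genes of erythroblasts were at 0.046 and 0.65, those of B cells at 0.65 and -0.74, of T and NK cells at -0.56 and -0.66, of macrophages at -0.36 and 0.19 and of endothelium at -0.12 and -0.27. At homeostasis the median of the endothelial genes with enough UMIs was 0.15, with 3 of 4 higher, and that of the erythroblast genes -0.074, whose summed ratio has an interval of -0.036 to 0.13 that includes 0. Free RNA of the homeostasis library, read from 56160 empty barcodes, held 1.80% nuclear and 2.62% mitochondrial members, against 1.65% and 2.23% in the kept cells. The kept cells, unlike the empty barcodes, had been trimmed by mitochondrial share. Their part in the differences between genotypes was not tested.

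Promoters of the nuclear members were searched for motifs, since nuclear respiratory genes are known as targets of the factor NRF1. RefSeq (GRCm38.p6) windows from 250 bases before to 50 after the start matched 77 of 94 nuclear members. The NRF1-type motif searched was GCGC and TGCGC with 1 base of any kind between them, on either strand, and it stood in 21 of them (27.3%), against 11.5% of 10464 genes with at least 50 UMIs in each file and 5.19% of all 27025 genes. Members with these letters had a median log2 ratio of -0.044, and those without -0.061, at homeostasis. In the 5-FU library the medians were 0.12 and 0.11. The median was thus nearly the same with and without these letters. An ETS-type motif (CCGGAAGT) stood in 6.49% of the members and 9.11% of the expressed genes, and CCAAT in 44.2% and 42.8%. A YY1-type motif of 11 letters stood in 6 members (7.79%) and 2.70% of the expressed genes, and an E2F-type motif (TTTNGCGC) in 4 members (5.19%) and 2.83%. The 6 members with the YY1-type letters had a median log2 ratio of 0.054, and those without -0.051, at homeostasis, and 0.24 and 0.11 after 5-FU. Sites of 30 bases with the NRF1-type letters in capitals are shown for Ndufs5, Sdhd and Atp5g2, members of different complexes with unlike ratios between genotypes. They are printed as read on the minus strand, at chr4:123718265-123718294, chr9:50603909-50603938 and chr15:102671070-102671099. For Ndufs5 and Sdhd the capitals are the motif as it reads from the other strand, GCGCA and GCGC with 1 base of any kind between them.
Ndufs5: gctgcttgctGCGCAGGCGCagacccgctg
Sdhd: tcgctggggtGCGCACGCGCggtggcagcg
Atp5g2: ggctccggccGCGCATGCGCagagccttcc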

How the data were processed

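The authors deposited raw UMI counts per gene and barcode, made with Cell Ranger (4 at homeostasis and 6.0.1 after 5-FU, per the file headers), with all barcodes listed at homeostasis (6794880) and called cells after 5-FU (12753). The submitters' processing notes name mm9, Cell Ranger, Seurat and DESeq2 without their roles. Homeostasis rows were named from the 5-FU feature list, and log totals correlated at 0.919 in this order and at most 0.393 when shifted. Homeostasis barcodes were cells at 10% of the 99th percentile of the 10000 largest (2921 UMIs), which gave 23931. The libraries shared 76 cell barcodes. Tags were classified with HTODemux (Seurat 5.3.0, positive quantile 0.99), with B0096 as wild type and B0157 as knockout per the study's methods. Homeostasis held 11579 wild-type, 4628 knockout, 1441 doublet and 6283 negative cells, and the 5-FU library 5302, 3727, 434 and 3290. Trimming took off 2% at each end of the distributions of UMIs, detected genes and mitochondrial share (kept range 1.29 to 4.08% and 2.08 to 50.4%), and any cell in which 10 lineage genes reached 2 UMIs. Doublets of a single genotype were not removed.

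Each library was clustered with scanpy 1.11.5 (2000 variable genes, 30 components, 20 neighbours, Leiden resolution 1), without 3154 genes (members, mitochondrial and cell cycle genes, and genes differing 1.5-fold between genotypes). These exclusions and the naming rules were settled after a first clustering in which genotypes separated. A cluster was named when most of a class's markers, and at least 3, were 1.5-fold higher than in other cells. Its leading genes could hold markers of another class or cell type only if they held more of its own. Pools were compared as log2 ratios of UMIs per pool total with 0.5 UMIs added and exact (Clopper-Pearson) 95% intervals. The intervals were checked on data simulated with counting error alone, so spread between cells or mice was not part of that check. With 1 pool per genotype there was no test. Genes counted as past the limit (25% higher or 20% lower) needed 50 UMIs over both pools. The genes named were all mitochondrial members, the 2 of highest level and the extremes of ratio (200 or more UMIs) per complex and condition, and the isoform groups. Members and lists were chosen with earlier results of these data known. Alternatives were another tag rule (80% of hashtag UMIs), no mitochondrial limit, other scalings, means over cells, cluster weights shared by both genotypes, a 2-fold marker rule and a fold of 1.5. Depth-matched cells, other limits on depth and mitochondrial share, leaving out the shallow cluster, leaving out mt-Nd3 and counting Ndufa4 with complex IV were added after seeing the data.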

Additional observations from a re-analysis of the deposited data

Results flagged for a closer look

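Results are listed here because knockout and wild type differed in opposite directions at homeostasis and after 5-FU. None of these differences between conditions was tested, and condition and library cannot be told apart. The nuclear members together had a log2 ratio of knockout over wild type of -0.067 at homeostasis and 0.12 after 5-FU, and their subunits without assembly factors -0.068 and 0.12. The nuclear members of complex I were at -0.061 and 0.13, those of complex III at -0.085 and 0.058, those of complex IV at -0.061 and 0.15 and those of complex V at -0.080 and 0.098. The mitochondrial members of complex IV were at 0.17 and -0.014 and those of complex V at 0.19 and -0.029. Among single genes, mt-Nd3 was at -1.07 and 0.13, Ndufa4 at -0.35 and 0.052, and Ndufs5 at -2.07 and 0.19. In cells of 5000 to 12000 UMIs with at most 15% mitochondrial UMIs several of these after 5-FU had the sign seen at homeostasis, namely all nuclear members at -0.011, the nuclear members of complex III at -0.070 and of complex V at -0.053, the mitochondrial members of complexes IV and V at 0.10 and 0.11, and Ndufa4 at -0.067.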

How the results depend on the processing

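No paired analysis was possible because the labels give no replicate numbers and each genotype was 1 pool within a library. Leaving out a replicate was not possible for the same reason. Of 100 alternatives run for the group sums and counts, 9 changed the sign and 55 moved the value past its counting interval or a count by over 1.5 times, and the cause was not tested. All values are log2 ratios unless called counts. With the 80% hashtag rule, knockout over wild type at homeostasis was -0.16 for nuclear and 0.21 for mitochondrial members in all kept cells, and -0.13 and 0.22 in LT-HSC-like cells. After 5-FU it was 0.10 and 0.11, and -0.0079 (reversed from 0.036) and 0.20. Without removal by mitochondrial share the nuclear ratio of LT-HSC-like cells at homeostasis reversed to 0.020, and the mitochondrial ratios were 0.16 in all kept and 0.16 in LT-HSC-like cells, and 0.029 and 0.078 after 5-FU. Scaling by the median ratio over all genes gave -0.072 and 0.14 in all kept cells at homeostasis, 0.14 and 0.041 after 5-FU, and 0.053 and 0.047 in LT-HSC-like cells after 5-FU. Means over cells gave -0.071 and 0.16 at homeostasis, 0.083 and 0.15 after 5-FU, and 0.015 for mitochondrial members of LT-HSC-like cells after 5-FU. Giving each cluster the same weight in both genotypes, its share of all kept cells, gave -0.028 for nuclear members at homeostasis, and 0.11 and 0.026 after 5-FU. The 2-fold marker rule gave -0.010 and 0.19 in LT-HSC-like cells at homeostasis and 0.046 and 0.19 after 5-FU. Restricting to depth-matched cells, of 5000 to 12000 UMIs with at most 15% mitochondrial UMIs, was chosen after seeing the data. At homeostasis these cells had ratios of -0.088 and 0.16. After 5-FU they gave -0.011 (reversed from 0.12) and 0.14 in all kept cells, and -0.018 (reversed from 0.036) and 0.12 in LT-HSC-like cells. The 5000 to 12000 UMI window alone gave -0.012 (reversed) and 0.15 after 5-FU, and a limit of 15% mitochondrial UMIs alone gave -0.0044 for mitochondrial members (reversed from 0.022), as did leaving out the shallow cluster, with -0.0024. Cells above 12000 UMIs gave -0.015 and 0.10 at homeostasis, and 0.11 and -0.027 (reversed) after 5-FU. With Ndufa4 counted in complex IV the homeostasis ratio was -0.028 for complex I and -0.095 for complex IV. These were also chosen after seeing the data. Without mt-Nd3, also chosen after seeing the data, the mitochondrial ratio at homeostasis was 0.16 in all kept and 0.20 in LT-HSC-like cells.

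For LT-HSC-like over other wild-type cells, the nuclear ratio at homeostasis (-0.25) was -0.41 with the 2-fold marker rule, -0.35 without removal by mitochondrial share and -0.24 in depth-matched cells, and the mitochondrial ratio (0.012) was 0.036, 0.068 and 0.026. After 5-FU the nuclear ratio (-0.24) was -0.37, -0.20 and -0.050. The mitochondrial ratio after 5-FU (0.076) reversed to -0.031 without removal by mitochondrial share and was 0.050 in depth-matched cells. The count of nuclear members past the limit of 0.32, 6 at homeostasis, was 3 past 1.5-fold (8.47% of all genes) and 13 with the 80% hashtag rule (27.7%), and the count of 8 after 5-FU was 2 past 1.5-fold (8.29%) and 5 in depth-matched cells, 4 of them with enough UMIs (21.5% of all such genes). Of 450 alternatives run for single named genes, 335 stayed within the counting interval, and 18 values of 14 genes reversed although that interval did not include 0. With the 80% hashtag rule Ndufa6, Ndufs7 and Atp5mpl went to -0.023, -0.0060 and -0.12 at homeostasis, and mt-Co2, mt-Atp8 and mt-Atp6 to 0.012, 0.068 and 0.093 after 5-FU. In depth-matched cells after 5-FU these 3 went to 0.048, 0.025 and 0.11, Ndufa4 to -0.067, Ndufb1-ps to -0.075, Uqcr10 to -0.088, Uqcrq to -0.023, Atp5e to -0.058, Atp5mpl to -0.076, Cox7a2 to -0.098, Cox8a to -0.0079 and Atp5g1 to -0.048. Of genes whose interval included 0, 15 further values changed sign. Depth limits Cox4i2, Cox6a2 and Cox7a1, which had 30 to 546 UMIs in a pool.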
